A study of Mus musculus with 6 samples.

Results

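The purinergic receptors described here are 10 genes, taken by symbol from the 32285 genes of the count matrices: the ATP-gated channels *P2rx1* to *P2rx7* and the G protein-coupled receptors *P2ry1*, *P2ry2* and *P2ry12*. They were followed through 6 single-cell RNA-seq libraries of whole, unsorted autonomic ganglia from mouse pups of both sexes at postnatal day 5. The stellate, coeliac and lumbar ganglia (sympathetic) and the sphenopalatine ganglion (parasympathetic) gave 1 library each, and the pelvic ganglion gave 2, called pelvic replicates 1 and 2. All pups carried a Cre transgene and a tdTomato reporter that Cre switches on, so there was no wild-type group; the reporter was not among the counted genes and selected no cell. The number of pups behind a library is not given in the sources used here, so the p-values below measure only the spread between libraries.

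P2X receptors are trimeric cation channels that open when extracellular ATP binds, and subunits can mix, the best known mixed channel being made of P2X2 and P2X3. P2Y receptors respond to ATP, ADP or UTP through G proteins. In autonomic ganglia ATP is released by nerve endings and by damaged or active cells; P2X2 and P2X3 are the classical neuronal subunits, P2X4, P2X7 and P2Y12 are known from macrophages and microglia, and P2X1 from the smooth muscle of arteries and bladder.

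Of all droplets, 21442 were retained (1427 in the coeliac library to 7219 in the stellate library), from deposited totals of 39353313 to 113352559 unique molecular identifiers (UMIs, 1 for each captured RNA molecule) per library. Most were sorted into neurons (237 to 2701 per library) and into glia-like, macrophage-like, endothelial-like, mural-like and fibroblast-like cells, without the use of any purinergic gene. Each of 47 class markers was highest in its own class, but most of them had served to name or select the classes, so this was largely fixed in advance. The droplets outside these classes entered no comparison. They included 1204 cycling cells, with 13.2% of all *P2rx7* and 7.79% of all *P2ry12* UMIs, 358 neuron-like droplets that were not selected, and droplets without a name. Levels are given as CPM, the UMIs of a gene for every 1000000 UMIs summed over all cells of a class in a library; each UMI stands for a molecule, whatever its length. Depth differed: the median neuron held 26770 UMIs in the stellate library and 108545.5 in pelvic replicate 2, and the median glia-like cell 3393.5 to 11932, and shares of cells with a UMI depend on this depth. Free neuronal RNA, read as the level of 6 neuronal genes in glia-like cells relative to neurons, had a median of 3.18% in pelvic replicate 2 to 19.3% in the stellate library. The stellate, sphenopalatine and first pelvic libraries shared 20 to 49 retained barcodes pair by pair, and every other pair at most 4.

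*P2rx2* was mainly a transcript of neurons: 92.4% of its 5402 UMIs were in neurons, which held 70.1% of all UMIs. By their mean levels in the 6 classes compared, *P2ry12*, *P2rx4* and *P2rx7* were highest in macrophage-like cells and next highest in glia-like cells. *P2rx1* was by the same measure highest in mural-like cells, *P2ry1* in fibroblast-like cells, and *P2ry2* in endothelial-like cells. *P2rx5* and *P2rx6* were near the limit of detection in every class. A mean of at least 5% of cells held a UMI of the gene in 18 of the 60 pairs of receptor and class.

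**Figure D1:**
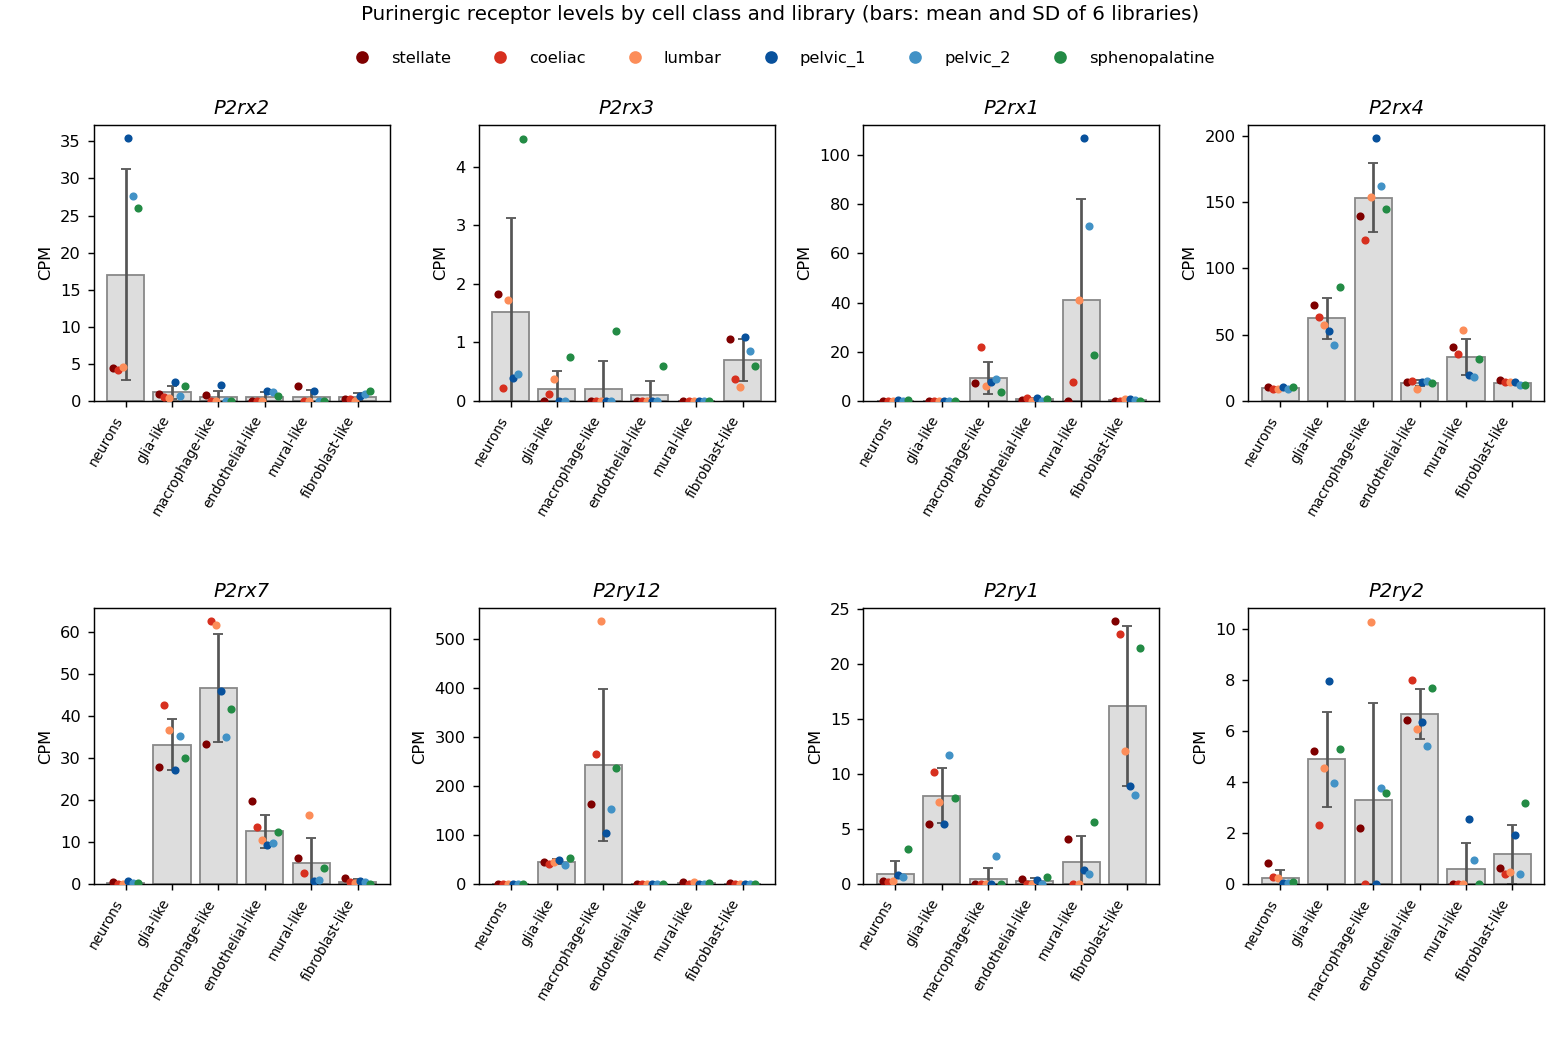
Level of 8 receptors (y axis, CPM, linear, each panel with its own scale) in 6 cell classes (x axis); bars are means and whiskers SDs of 6 libraries, and each point is a library, with pelvic_1 and pelvic_2 for the pelvic replicates. *P2rx2* stands out in neurons at 17.0 CPM on average, *P2ry12* and *P2rx4* in macrophage-like cells at 243 and 154, and *P2rx1* in mural-like cells at 40.9 with a range from 0 to 107.

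Against glia-like cells of the same libraries, neurons differed in 6 of the 7 receptors that passed the filter on low counts, 1 higher and 5 lower; 72.7% of the 13853 genes tested differed in this comparison (38.5% higher and 34.1% lower), so that the sizes carry more than the count. *P2rx2* was 3.82 ± 0.31 higher in neurons on the log2 scale (SE; edgeR quasi-likelihood test with Benjamini-Hochberg adjustment, adjusted p = 2.12e-12), and *P2rx7* was lower by the largest amount, -6.57 ± 0.36 (edgeR adjusted p = 2.64e-16). *P2rx2* passed the filter only through the neuron sums, so its place among the receptors tested came from the class in which it is high. *P2rx1* passed only through macrophage-like and mural-like sums. *P2rx3*, *P2rx5* and *P2rx6* fell under the filter. Without it *P2rx3* was higher in neurons by 2.80 ± 0.58 (edgeR adjusted p = 0.000106). The cells were grouped by other genes of the same cells. All contrasts against glia-like cells share the same 6 sums of those cells as their reference, and other pairs of classes were compared in the same fit.

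*P2rx2* lies on the minus strand of chromosome 5, at chr5:110339812-110343212 (build GRCm38, as for all positions here, with the GENCODE annotation), and codes for the P2X2 subunit, which forms slowly desensitising channels. In neurons it measured 4.42 CPM in the stellate library, 4.17 in the coeliac, 4.59 in the lumbar, 35.4 and 27.6 in pelvic replicates 1 and 2, and 26.0 in the sphenopalatine. The 3 sympathetic libraries were thus alike and low, and both pelvic libraries and the sphenopalatine were high, with no overlap. The share of neurons with a *P2rx2* UMI followed the same split, at 10.6%, 18.6% and 23.8% in the sympathetic libraries, 66.1% and 71.3% in the pelvic libraries and 54.5% in the sphenopalatine. In glia-like cells, which serve as the background for free RNA, this share was 0.324% to 1.04% at their lower depth. With every neuron thinned to 4000 UMIs the share was 1.49%, 0.431% and 1.13% in the stellate, coeliac and lumbar libraries against 12.8% and 8.38% in the pelvic libraries and 9.46% in the sphenopalatine. Glia-like cells thinned in the same way averaged 0.337% over the 6 libraries. The thinned coeliac value lay close to this mean and rests on very few neurons. Cells with fewer than 4000 UMIs were left out of both. Without thinning, 44 of the 237 coeliac neurons held a *P2rx2* UMI, and the *P2rx2* level of coeliac glia-like cells was 11.1% of that of coeliac neurons.

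**Figure D2:**
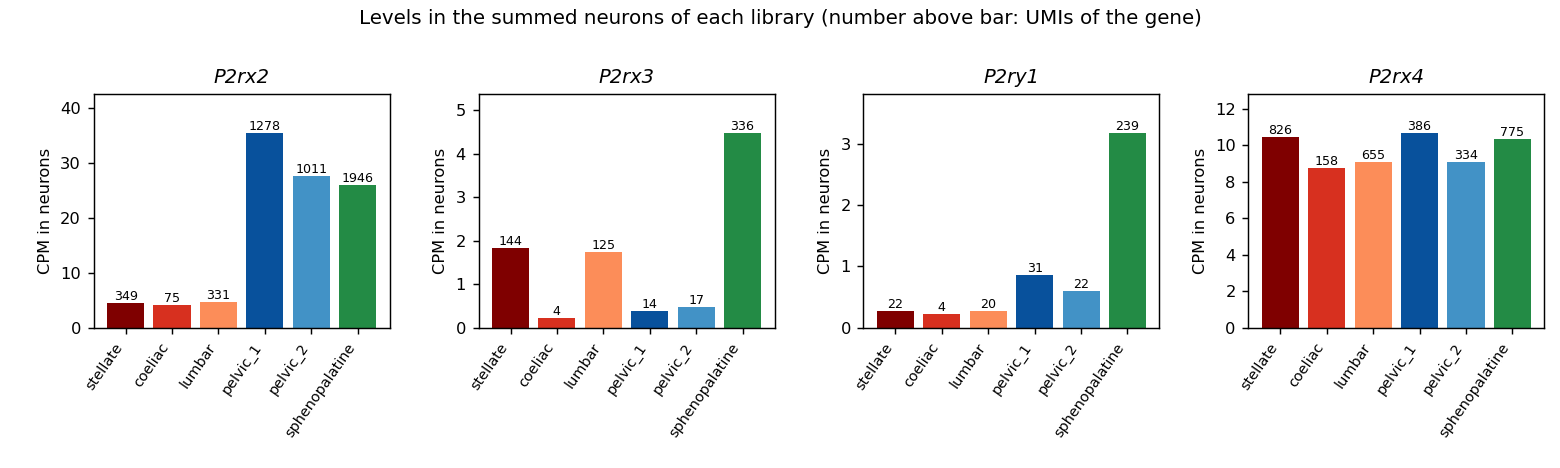
Levels of *P2rx2*, *P2rx3*, *P2ry1* and *P2rx4* in the summed neurons of each library (y axis, CPM, linear from 0; the number above each bar is the UMIs of the gene). *P2rx2* was 4.17 to 4.59 in the 3 sympathetic libraries and 26.0 to 35.4 in the others, whereas *P2rx4* stayed between 8.79 and 10.7 in all 6.

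Pelvic neurons were compared with sympathetic neurons across 2 and 3 libraries, with the preparation round as a term, since the stellate, sphenopalatine and first pelvic libraries were made with version 2 of the droplet chemistry and the others with version 3. Of the 7 receptors tested, 3 differed, 2 higher and 1 lower, beside 18.3% of the 15659 genes tested (10.2% higher and 8.12% lower). *P2rx2* averaged 31.5 ± 5.56 CPM in pelvic neurons (SD, n = 2) and 4.39 ± 0.209 in sympathetic neurons (SD, n = 3), a log2 difference of 2.80 ± 0.15 (edgeR quasi-likelihood adjusted p = 0.000101), and it kept its call in all 11 alternatives with values from 1.68 to 2.96. The lowest of these, 1.68 ± 0.17 (edgeR adjusted p = 0.00857), was the comparison of the noradrenergic pelvic cluster alone, described next, with sympathetic neurons, chosen after seeing the data. The 3 sympathetic libraries come from 3 different ganglia, so their spread includes differences between ganglia.

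Within the pelvic ganglion 4 clusters of neurons were named P1-like to P4-like, from markers that did not include the receptors. They held 547, 346, 162 and 87 neurons over both libraries, out of 874 in pelvic replicate 1 and 362 in pelvic replicate 2. The remaining neurons were in clusters left without a name and entered no value or contrast of the clusters. *P2rx2* measured 51.2 and 49.3 CPM in the P2-like cluster of pelvic replicates 1 and 2, 31.0 and 21.3 in P1-like, 22.6 and 18.5 in P4-like, and 13.97 and 14.7 in P3-like neurons. Of the named clusters, P2-like neurons were thus the highest and P3-like neurons the lowest in both libraries, and even the P3-like values lay above the 3 sympathetic libraries. At least 1 *P2rx2* UMI was found in 85.4% and 83.7% of P2-like neurons (254 and 92 cells) and in 36.9% and 59.4% of P3-like neurons (130 and 32 cells). Against the mean of the other clusters the log2 difference was 1.40 ± 0.12 for P2-like neurons (edgeR quasi-likelihood adjusted p = 2.27e-08) and -1.09 ± 0.16 for P3-like neurons (edgeR adjusted p = 2.64e-05). It was 0.13 ± 0.13 for P1-like (edgeR adjusted p = 0.614) and -0.43 ± 0.17 for P4-like neurons (adjusted p = 0.0703), neither of which passed. *P2rx2* was the only receptor of the 3 tested that was called in P2-like and in P3-like neurons, where 23.5% and 26.2% of 13148 genes were called; by edgeR and by DESeq2 0 of the 3 were called in P1-like neurons, beside 15% of genes, and 0 had an unadjusted p below 0.05. *Th*, the first enzyme of noradrenaline synthesis, was found in a mean of 98.8% of P3-like neurons and in 2.73% to 7.93% of the other clusters.

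**Figure D3:**
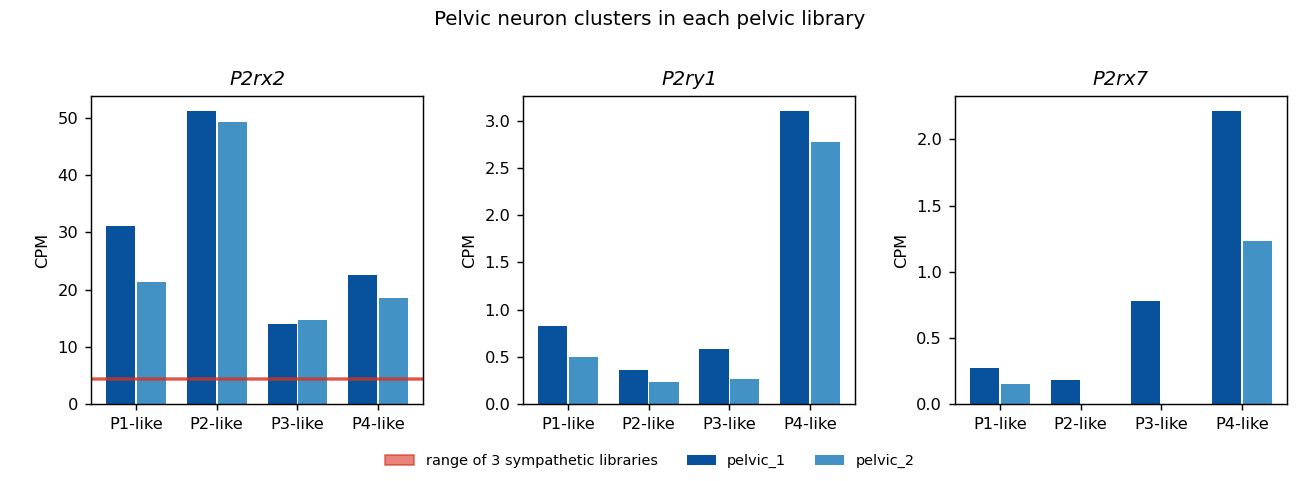
*P2rx2*, *P2ry1* and *P2rx7* in the 4 named pelvic neuron clusters (x axis) of each pelvic replicate (bars, y axis in CPM, linear from 0). The red band in the *P2rx2* panel is the range of the 3 sympathetic libraries, 4.17 to 4.59. *P2rx2* peaks in P2-like neurons at 51.2 and 49.3, and *P2ry1* in P4-like neurons at 3.10 and 2.78.

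Neurons were also divided, after the data had been seen, by whether they held more UMIs of the cholinergic genes *Chat*, *Slc18a3* and *Slc5a7* or of the noradrenergic genes *Th*, *Dbh* and *Slc6a2*. *P2rx2* measured 39.2 CPM in 734 cholinergic and 14.8 in 140 noradrenergic neurons of pelvic replicate 1, and 29.1 in 326 and 14.3 in 34 such neurons of pelvic replicate 2. In the sphenopalatine it was 26.2 in 1796 cholinergic and 18.3 in 58 noradrenergic neurons. The sympathetic ganglia held few cholinergic neurons; the 17 of the lumbar library measured 15.8 against 4.32 in its 903 noradrenergic neurons. Cholinergic neurons were higher in each of these 4 libraries; with the libraries serving as the only replicates, the differences were not tested.

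*P2rx3* (minus strand, chr2:84998583-85037462) codes for the P2X3 subunit, known from sensory neurons, where it makes rapidly desensitising channels alone and slower ones with P2X2. Its 731 UMIs were far fewer than those of *P2rx2*, and 87.6% of them were in neurons, which held 70.1% of all UMIs. Neurons measured 4.48 CPM in the sphenopalatine, 1.82 in the stellate and 1.73 in the lumbar library, and only 0.222 in the coeliac, 0.388 in pelvic replicate 1 and 0.464 in pelvic replicate 2. The last 3 values rest on 4, 14 and 17 UMIs. *P2rx3* was therefore high in a ganglion where *P2rx2* was high, the sphenopalatine, and low in another, the pelvic ganglion. The share of neurons with a UMI was 12.8% in the sphenopalatine (95% Wilson interval 11.4 to 14.4, counting error only), 9.83% in the lumbar library, 4.92% in the stellate and 1.27% to 4.14% in the rest, while it was at most 0.364% in glia-like cells. The pelvic against sympathetic difference of -1.70 ± 0.72 did not pass (edgeR quasi-likelihood adjusted p = 0.159). Fibroblast-like cells held 29 *P2rx3* UMIs in 3254 cells, 0.705 ± 0.358 CPM (SD, n = 6 libraries), and mural-like cells none in 612. The fibroblast-like level was 281% and 185% of the neuronal level in pelvic replicates 1 and 2 and 167% in the coeliac library. In the other libraries it was 13.5% to 58.3%.

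In the sphenopalatine, 148 of the 240 neurons with a *P2rx3* UMI also held a *P2rx2* UMI (61.7%), against 53.5% of its other neurons. The same shares were 34.1% and 22.6% in the lumbar library and 18.0% and 10.2% in the stellate library. In pelvic replicate 1 the order was the other way, with 9 of 14 such neurons (64.3%) against 66.2% of the others. Pelvic replicate 2 had 13 of 15 (86.7%) against 70.6%, and the coeliac library 2 of 3 against 17.9%. Neurons with a *P2rx3* UMI were deeper than the others in every library but pelvic replicate 1, with medians of 109228 against 65536 UMIs in the lumbar and 40550 against 37945.5 in the sphenopalatine library; the part of depth in the higher shares was not tested. A single neuron held at most 19 *P2rx2* UMIs, in pelvic replicate 2.

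*P2ry1* (chr3:61002795-61008982), a receptor for ADP, was low in most neurons, and the sphenopalatine stood above the rest. It measured 0.279, 0.222 and 0.277 CPM in stellate, coeliac and lumbar neurons, 0.860 and 0.6002 in pelvic replicates 1 and 2, and 3.19 in sphenopalatine neurons, of which 10.9% held a UMI (interval 9.58 to 12.4). The pelvic libraries were both above the sympathetic ones, by 1.38 ± 0.38 on the log2 scale (edgeR quasi-likelihood adjusted p = 0.0448), but the call was lost in 6 of 10 alternatives. Among these were leaving out the stellate library (1.23, edgeR adjusted p = 0.241), pelvic replicate 1 (1.25, 0.308) or pelvic replicate 2 (1.57, 0.215).

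Of the named pelvic clusters, P4-like neurons had the most *P2ry1*, at 3.10 and 2.78 CPM in pelvic replicates 1 and 2 (7 and 9 UMIs). The other named clusters measured 0.237 to 0.828. The log2 difference was 2.67 ± 0.56 (edgeR quasi-likelihood adjusted p = 0.0011), the single call among 3 receptors, beside 26.1% of genes. The gene passed the low-count filter only through P4-like neurons, the cluster in which it was then called higher. The call was kept in each alternative that could be tested. In pelvic replicates 1 and 2 taken alone, the difference was 1.75 and 1.99, with no test. All 9 glia markers were also highest in P4-like neurons, among the named clusters, in both libraries. The sum of the markers was 421 and 416 CPM there and 20.7 to 118 in the other named clusters. These sums were 4.15% and 4.18% of the sums in glia-like cells of the same libraries, and *P2ry1* in P4-like neurons, from 7 and 9 UMIs, was 56.7% and 23.7% of its glial level. *P2rx7* in P4-like neurons rested on 5 and 4 UMIs and stood at 8.20% and 3.51% of its glial level; it entered the test only without the low-count filter (2.94, edgeR adjusted p = 0.0243) or without centring per library (2.75, adjusted p = 0.0186). The part of glial RNA in these values was not tested.

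*P2ry2* (minus strand, chr7:100996568-101012866), a receptor for ATP and UTP, was rare in neurons, with 64, 5 and 18 UMIs in stellate, coeliac and lumbar neurons, 2 and 1 in the pelvic replicates and 5 in the sphenopalatine. The 3 pelvic UMIs against 87 sympathetic ones gave a ratio of levels of 0.0802 (95% counting interval 0.0162 to 0.242), and the edgeR quasi-likelihood test called it lower in pelvic neurons (adjusted p = 0.00722). The gene passed the low-count filter only through sympathetic libraries, the side where it was higher, so the call carries little weight. It could be tested in 8 of the 11 alternatives. That call was lost without the preparation round in the model (edgeR adjusted p = 0.0978), without pelvic replicate 1 (0.162) and without pelvic replicate 2 (0.0762).

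*P2rx4* lay in a narrow range in the neurons of all ganglia: 10.5, 8.79 and 9.08 CPM in the stellate, coeliac and lumbar libraries, 10.7 and 9.11 in the pelvic replicates and 10.3 in the sphenopalatine. Its pelvic against sympathetic difference in neurons was 0.03 ± 0.15 (edgeR quasi-likelihood adjusted p = 0.934). *P2rx7* (0.97 ± 0.46, edgeR adjusted p = 0.202) and *P2ry12* (0.15 ± 0.40, edgeR adjusted p = 0.843) did not pass either, at 0.0970 to 0.638 and 0.319 to 1.00 CPM in neurons.

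*P2ry12*, *P2rx4* and *P2rx7* were each highest in macrophage-like and next highest in glia-like cells by their means. *P2rx7* (chr5:122643911-122691432) and *P2rx4* (chr5:122707544-122729738) are neighbours on the plus strand of chromosome 5, with 16111 bases between the end of the first and the start of the second, and *P2ry12* lies on the minus strand at chr3:59216272-59262871. In the other classes they parted: endothelial-like cells averaged 12.5 CPM of *P2rx7* and 0.387 of *P2ry12*. Mural-like cells averaged 33.1 of *P2rx4*, 5.06 of *P2rx7* and 1.83 of *P2ry12*. The 250 bases before each start, as RefSeq gives them for build GRCm38.p6, are shown because of the shared order in macrophage-like and glia-like cells. Capitals mark GGAA on either strand (TTCC on the other), the core that ETS factors such as the macrophage factor PU.1 bind. The windows are chr5:122707294-122707543 for *P2rx4*, chr5:122643677-122643926 for *P2rx7* and, on the minus strand, chr3:59262986-59263235 for *P2ry12*.
P2rx4: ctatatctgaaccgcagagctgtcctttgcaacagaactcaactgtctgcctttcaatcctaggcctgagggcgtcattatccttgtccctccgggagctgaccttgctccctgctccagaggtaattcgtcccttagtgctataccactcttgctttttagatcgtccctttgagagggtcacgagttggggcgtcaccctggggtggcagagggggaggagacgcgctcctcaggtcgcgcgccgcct
P2rx7: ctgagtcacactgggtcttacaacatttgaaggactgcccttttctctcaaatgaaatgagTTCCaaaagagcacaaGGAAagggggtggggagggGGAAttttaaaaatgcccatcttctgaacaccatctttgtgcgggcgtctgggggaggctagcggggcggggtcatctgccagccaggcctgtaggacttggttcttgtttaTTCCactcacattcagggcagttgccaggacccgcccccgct
P2ry12: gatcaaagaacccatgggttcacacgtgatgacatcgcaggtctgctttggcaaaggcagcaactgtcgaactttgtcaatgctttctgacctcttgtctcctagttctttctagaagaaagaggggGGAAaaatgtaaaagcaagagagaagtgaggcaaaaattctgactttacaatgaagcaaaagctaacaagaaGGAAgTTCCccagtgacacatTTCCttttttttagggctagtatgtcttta
The core occurred 4 times before *P2rx7*, 4 times before *P2ry12* and 0 times before *P2rx4*; 93.4% of all 32851 such windows held it at least once. The longer motif GAGGAAGT, searched on both strands and containing the core, was in none of the 3 windows and in 2.44% of all windows. These are matches of letters only.

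*P2ry12*, an ADP receptor that marks microglia and also acts in platelets, measured 163, 265 and 536 CPM in macrophage-like cells of the stellate, coeliac and lumbar libraries, 105 and 152 in the pelvic replicates, and 236 in the sphenopalatine. In glia-like cells it stayed between 38.6 and 53.6. The macrophage-like values were above the glial ones in all 6 libraries and ranged widely, with the lumbar library highest and pelvic replicate 1 lowest, while the glial ones were alike. The log2 difference was 2.57 ± 0.27 (edgeR quasi-likelihood adjusted p = 7.74e-10). Neurons, endothelial-like, mural-like and fibroblast-like cells had means of at most 1.83. The macrophage-like sums rest on 20 (coeliac) to 216 (stellate) cells.

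*P2rx4*, the ATP-gated channel of macrophage endosomes and lysosomes, measured 140, 121, 154, 199, 162 and 145 CPM in macrophage-like cells of the stellate, coeliac, lumbar, first pelvic, second pelvic and sphenopalatine libraries. Glia-like cells of the same libraries measured 72.4, 63.5, 57.2, 52.7, 41.9 and 85.9. Macrophage-like cells were higher in every library without overlap, by 1.62 ± 0.16 on the log2 scale (edgeR quasi-likelihood adjusted p = 4.5e-10). The order then ran to mural-like cells (33.1 ± 13.3, SD, n = 6 libraries), fibroblast-like cells (13.6 ± 1.44), endothelial-like cells (13.5 ± 2.44) and neurons (9.75 ± 0.844). Mural-like cells were below glia-like cells by 1.09 ± 0.19 and above endothelial-like cells by 1.04 ± 0.22 on the log2 scale (edgeR adjusted p = 2.78e-05 and 0.000277; 41.9% and 41.6% of genes differed in these comparisons). Fibroblast-like and endothelial-like cells did not differ beyond their spread (0.10 ± 0.19, edgeR adjusted p = 0.706), nor did endothelial-like cells and neurons (0.39 ± 0.18, edgeR adjusted p = 0.0508), beside 50.5% and 75.9% of genes that did.

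*P2rx7*, the channel that opens at high ATP and is known for inflammasome activation, measured 33.3, 62.5, 61.6, 45.8, 35.0 and 41.6 CPM in macrophage-like cells in the same order of libraries, and 27.8, 42.6, 36.7, 27.0, 35.2 and 29.9 in glia-like cells. The ranges overlapped. The difference of 0.70 ± 0.31 barely passed (edgeR quasi-likelihood adjusted p = 0.0493) and was lost in 13 of 16 alternatives. Since glia-like cells were far more numerous, they held 61.2% of all *P2rx7* UMIs. Endothelial-like cells followed at 12.5 ± 3.88 (9.36 to 19.7), 1.41 ± 0.31 below glia-like cells on the log2 scale (edgeR adjusted p = 0.000256), then mural-like cells at 5.06 ± 5.91, and fibroblast-like cells and neurons were at 0.558 ± 0.516 and 0.305 ± 0.200, not different beyond their spread (edgeR adjusted p = 0.207, beside 75.5% of genes that differed). Over all 7 receptors tested, macrophage-like cells differed from glia-like cells in 5, 4 higher and 1 lower, beside 57% of genes (25.1% higher and 31.9% lower).

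Glia-like cells of the pelvic and sympathetic ganglia were compared in the same way as neurons, and 1 of the 5 receptors tested was called, beside 3.24% of genes. *P2rx4* averaged 47.3 ± 7.63 CPM in the pelvic (SD, n = 2) and 64.4 ± 7.66 in the sympathetic libraries (SD, n = 3), a difference of -0.50 ± 0.11 on the log2 scale (edgeR quasi-likelihood adjusted p = 0.0453). It was lost in 7 of 10 alternatives, including each of the 5 in which a library was left out, and the sphenopalatine, at 85.9, lay above both groups. *P2rx7* (-0.12 ± 0.13), *P2ry12* (-0.02 ± 0.12), *P2ry1* (0.25 ± 0.24) and *P2ry2* (0.41 ± 0.33) did not pass.

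*P2rx1* (chr11:72999103-73015200), the channel through which ATP contracts arterial and bladder smooth muscle, was found in mural-like cells at 107 and 71.3 CPM in pelvic replicates 1 and 2, 41.0 in the lumbar library, 18.7 in the sphenopalatine, 7.51 in the coeliac and 0 in the stellate library. The pelvic libraries were thus the highest and the stellate library, with a UMI in 0 of 114 cells, the lowest. That count allows up to 2.63% of cells with a UMI and sets no limit on cells that express the gene; the median of 3848.5 UMIs per cell there was the lowest of the 6 libraries. Mural-like cells held 266 *P2rx1* UMIs and glia-like cells 2, a ratio of levels of 1322 (95% counting interval 362 to 10975), and the edgeR quasi-likelihood test called the difference (adjusted p = 3.18e-10). Macrophage-like cells came next with 36 UMIs, 3.57 to 22.1 CPM by library, also above glia-like cells (edgeR adjusted p = 2.61e-07) and below mural-like cells by 1.76 ± 0.64 on the log2 scale (edgeR adjusted p = 0.0238, beside 46.8% of genes). The order was the other way in the coeliac library, at 22.1 in macrophage-like and 7.51 in mural-like cells. It was also reversed in the stellate library, where only the macrophage-like level was above 0. The other 4 classes had means of at most 0.608. The gene had passed the low-count filter only through mural-like and macrophage-like sums, the groups in which it was called higher. In all, mural-like cells differed from glia-like cells in 5 of 7 receptors, 1 higher and 4 lower, beside 18.1% of genes higher and 23.7% lower.

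Mural-like cells hold both contractile smooth muscle cells and pericytes, and they were divided, after seeing the data, by whether they held more UMIs of *Acta2*, *Tagln*, *Myh11* and *Cnn1* or of *Rgs5*, *Kcnj8*, *Abcc9* and *Higd1b*. The 263 contractile cells held 265 of the 266 *P2rx1* UMIs, and the 345 pericyte-type cells held 1. In contractile cells the level was 162 CPM in pelvic replicate 1 (168 cells), 101 in pelvic replicate 2 (46 cells) and 53.7 in the sphenopalatine (28 cells), with a UMI in 44.0%, 50.0% and 25.0% of cells. The lumbar and coeliac libraries had only 5 and 3 contractile cells, with 10 UMIs in 2 cells and 3 UMIs in 1 cell. The stellate library had 0 UMIs in 13. Contractile cells were 168 of the 268 and 46 of the 76 mural-like cells of the pelvic replicates, against 28 of 92 in the sphenopalatine, 5 of 27 in the lumbar, 3 of 35 in the coeliac and 13 of 114 in the stellate library. The class level of *P2rx1* did not follow this order throughout, since the lumbar library lay above the sphenopalatine and the coeliac above the stellate library. These lumbar and coeliac levels rest on the 2 cells and 1 cell with a UMI. The part of the makeup of the class in its level was not tested. *P2rx4* had 79 UMIs in the pericyte-type and 34 in the contractile cells.

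**Figure D4:**
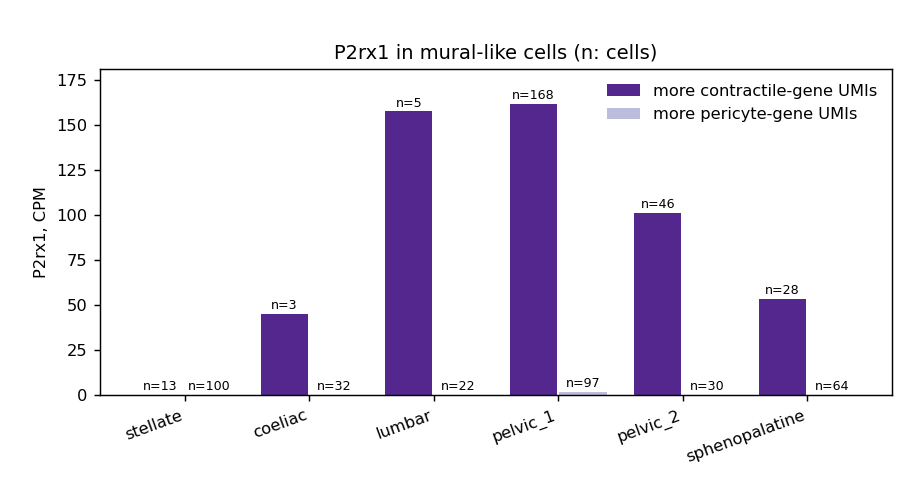
*P2rx1* in mural-like cells of each library (y axis, CPM, linear from 0), divided into cells with more contractile-gene UMIs (dark) and more pericyte-gene UMIs (light); n is the number of cells. Dark bars reach 162 in pelvic replicate 1 and 158 in the lumbar library, the latter from 10 UMIs in 2 of 5 cells. The light bars are at 0 in 5 of 6 libraries.

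Endothelial-like cells carried *P2ry2*, *P2rx7* and *P2rx4*. *P2ry2* measured 6.40, 7.99, 6.07, 6.35, 5.42 and 7.68 CPM in the stellate, coeliac, lumbar, first pelvic, second pelvic and sphenopalatine libraries, with little spread between libraries. It was 4.88 ± 1.86 in glia-like cells (SD, n = 6 libraries) and 3.29 ± 3.79 in macrophage-like cells, and the difference between endothelial-like and glia-like cells did not pass (0.54 ± 0.51, edgeR quasi-likelihood adjusted p = 0.378). Against fibroblast-like cells (1.16 ± 1.15) it was higher by 2.43 ± 0.58 on the log2 scale (edgeR adjusted p = 0.000755). In all, endothelial-like cells differed from glia-like cells in 4 of 7 receptors, all lower, beside 59.9% of genes (29.1% higher and 30.8% lower). The share of cells with a *P2ry2* UMI ran from 5.43% in the stellate to 20.0% in the lumbar library, whose median endothelial-like cells held 8906 and 25188 UMIs.

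Among the 6 classes *P2ry1* was highest in fibroblast-like cells, at 23.8, 22.7 and 12.1 CPM in the stellate, coeliac and lumbar libraries, 8.88 and 8.10 in the pelvic replicates and 21.4 in the sphenopalatine. Glia-like cells measured 5.47, 10.2, 7.43, 5.47, 11.7 and 7.85 in the same order, so fibroblast-like cells were higher in 5 libraries and lower in pelvic replicate 2. The difference of 1.08 ± 0.38 passed (edgeR quasi-likelihood adjusted p = 0.0179) and was lost in 5 of 16 alternatives, among them leaving out the stellate or the coeliac library. Fibroblast-like cells differed from glia-like cells in 5 of 7 receptors, 1 higher and 4 lower, beside 51.8% of genes (26.7% higher and 25% lower). Macrophage-like cells held 2 *P2ry1* UMIs and glia-like cells 342, a ratio of levels of 0.0532 (counting interval 0.00641 to 0.193).

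*P2rx5* (chr11:73160421-73172685) and *P2rx6* (chr16:17561885-17577800), subunits known mainly from mixed channels, had 70 and 41 UMIs among the 21442 retained droplets. Their mean levels were at most 0.302 and 0.320 CPM in any class, and macrophage-like cells held 0 of either in 530 cells. Neither passed the filter on low counts in any comparison, and a difference between classes was not detectable at this depth.

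The other 35 genes of purinergic signalling set the receptors in context. They were 6 P2Y and 4 adenosine receptors, 8 genes of ATP release and storage, 5 of adenosine handling and 12 listed as ectonucleotidases. The last group is made of enzyme families that include those breaking down extracellular nucleotides. In neurons against glia-like cells 24 of the 35 genes were tested, of which 11 were higher and 9 lower, beside 72.7% of all genes tested that differed. All 9 tested genes of the ectonucleotidase list differed, 3 higher and 6 lower. *Entpd2*, which hydrolyses ATP to ADP, was lower by 7.09 ± 0.31 on the log2 scale (edgeR quasi-likelihood adjusted p = 1.19e-18) and *Alpl*, alkaline phosphatase, by 6.59 ± 0.57 (edgeR adjusted p = 6.34e-12). In macrophage-like cells 9 were higher and 8 lower (57% of all genes differed), led by the UDP receptor *P2ry6* (11.21 ± 0.53) and the ADP receptor *P2ry13* (9.32 ± 0.62). Endothelial-like cells had 13 higher and 7 lower (59.9% of all genes), with the adenosine receptor *Adora2a* at 6.36 ± 0.49; mural-like cells had 7 higher and 6 lower (41.9%), with *Adora2b* at 6.53 ± 0.55; fibroblast-like cells had 9 higher and 8 lower (51.8%), with *Adora2b* at 6.47 ± 0.49 and the UDP-sugar receptor *P2ry14* at 5.45 ± 0.37.

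In pelvic against sympathetic neurons 23 of these 35 genes were tested, of which 4 were higher and 6 lower, beside 18.3% of all genes that differed. Both adenosine receptors tested were higher, *Adora1* by 2.71 ± 0.47 (edgeR quasi-likelihood adjusted p = 0.00781), and *P2ry6* was lower by 2.91 ± 0.34 (edgeR adjusted p = 0.00162). In the pelvic clusters 19 were tested, beside 15%, 23.5%, 26.2% and 26.1% of all genes called in P1-like to P4-like neurons. P3-like neurons, where *P2rx2* was lowest, had 5 higher, with *Enpp2*, which makes lysophosphatidic acid, at 2.49 ± 0.34. P2-like neurons, where *P2rx2* was highest, had 4 higher and 6 lower, and P4-like neurons 4 of each, with *Gja1*, a connexin of glia and other cells, at 2.84 ± 0.53; P1-like neurons had 3 higher and 1 lower. In glia-like cells 18 were tested, beside 3.24% of all genes called. There *Gja1* was higher in the pelvic libraries by 0.53 ± 0.11 (edgeR quasi-likelihood adjusted p = 0.0447). The transporter *Slc29a4* was lower by 1.41 ± 0.28 (edgeR adjusted p = 0.0329). Both lay near the threshold, where calls in this comparison are less certain.

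In the sphenopalatine 4 receptors had a UMI in at least 5% of neurons: *P2rx2*, *P2rx4* (32.4%), *P2rx3* and *P2ry1*. With each neuron thinned to 4000 UMIs this held for *P2rx2* alone, and the values of the other 3 were 3.44%, 2.04% and 1.34%. The stellate and first pelvic libraries of the same round, thinned in the same way, gave 0.671% and 0.229% for *P2rx3* and 0.186% and 0.573% for *P2ry1*. With 1 parasympathetic library these are values of that library, and parasympathetic identity and library cannot be told apart.

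Over the 36 sums of class and library, the genes whose log2(CPM + 1) followed each receptor most closely, among those with at least 500 UMIs, are given as a description. *P2rx2* was closest to *Vwa7* (Pearson r = 0.925) and *Tnr* (0.920). *P2rx4* was closest to *Ctsc* (0.945), *Rassf4* (0.933) and *P2ry12* itself (0.931), and *P2rx7* also to *Ctsc* (0.919). *P2ry12* was closest to *Gnpda1* (0.964), *P2ry1* to *Capn6* (0.909), *P2rx3* to *Cnga3* (0.830) and *P2ry2* to *Pllp* (0.768), a gene of myelin. The sums share libraries and differ in depth.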

How the data were processed

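Single-cell RNA was counted in 6 droplet libraries of unsorted ganglia from pups at day 5. The deposited count matrices were made by the authors with Cell Ranger 6.0.1 on build mm10 (submitters' processing notes); each count is a UMI. The study's own limits selected the droplets: more than 1500 but fewer than 11000 genes detected, with the mitochondrial share below 15%.

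Neurons were selected on the mean of Stmn2, Stmn3, Gap43 and Tubb3 after SCT normalisation (Seurat 5.3.0, sctransform 0.4.2) as in the study's methods, and the rest was clustered (Louvain, igraph 0.11.9, resolution 1) and named from markers, with 45 purinergic genes left out. Pelvic neurons were clustered at resolution 0.3 on components centred per library. Doublets were not removed; leaving out the 5% with the highest simulated-doublet score was an alternative. Counts were summed per class and library (at least 20 cells; 10 for pelvic clusters) and tested with edgeR 4.0.16 quasi-likelihood (R 4.3.3; TMM, filterByExpr) with library, or for pelvic against sympathetic the round, as covariate; Benjamini-Hochberg adjustment covered all genes tested. DESeq2 1.42.0, other size factors, no filter, other cell cut-offs and leaving out each library were alternatives. On simulated counts with 200 genes changed 4-fold, 198 were recovered with 5 false calls among 13853 genes for neurons against glia-like cells, 199 with 21 false calls among 13148 for P3-like neurons, 193 with 27 false calls among 15659 for pelvic against sympathetic neurons and 198 with 18 false calls among 13037 for pelvic against sympathetic glia-like cells. In the last 3 the false calls exceeded the 5% that the threshold of 0.05 allows, so calls close to it there are less certain. The changed genes were drawn from those with an expected count above 20 in a sum of median size. The simulated sums also held no differences between libraries. The recovery therefore does not cover receptors with fewer UMIs. Shares of cells have Wilson 95% intervals, which, like ratio intervals, cover counting error only.

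All 10 receptors are named; of the 35 other purinergic genes, names were drawn from the 2 with the largest change among those called in a contrast, and for each receptor with at least 500 UMIs from the 3 genes most correlated with it; some items are not reported here. The members and lists were chosen with earlier results of these data known. Promoter windows came from RefSeq (7 of 10 receptors matched), positions from GENCODE M21.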

Additional observations from a re-analysis of the deposited data

Results flagged for a closer look

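*P2ry2* was found in 58 myelinating Schwann-like cells, which entered no comparison, with 22 UMIs, 39.6 CPM pooled over the libraries and a UMI in 29.3% of cells. Pooled in the same way, endothelial-like cells measured 6.54, the highest of the 6 classes compared, and glia-like cells 4.73 CPM. Pelvic replicate 1 and the sphenopalatine gave 27 and 15 of the 58 cells. It was singled out as a signal above those classes in cells that the comparisons did not use, and was not tested.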

How the results depend on the processing

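Of 32 calls on receptors, 23 were kept in all alternatives run for them, 9 were lost in some and 0 changed sign. For calls in pelvic clusters, these alternatives include each pelvic library alone, which gave a difference without a test. Such a difference was counted as kept when it lay close to the main value. The main fits called 26.1% of all genes in P4-like neurons, 18.3% in pelvic against sympathetic neurons and 3.24% in pelvic against sympathetic glia-like cells. The shares in the alternatives are not given, so the counts that follow alone say little of the receptors. The only receptor called in P4-like neurons became 2 without the low-count filter or without centring per library, as *P2rx7* joined *P2ry1*. The 3 calls in pelvic against sympathetic neurons fell to 1, *P2rx2*, without the round in the model, with doublets left out and with P3-like pelvic neurons only, and lay between 1 and 4 when each library was left out in turn. The 1 call in pelvic against sympathetic glia-like cells became 0 with DESeq2 and without the round, and 0 whichever library was left out. Pairs of receptor and class with a mean share of at least 5% numbered 18, and 8 after thinning to 2000 UMIs or 10 when 2 UMIs were asked for; receptors at that share in neurons numbered 3, or 1 after thinning to 4000 UMIs, and 4 or 1 in the sphenopalatine. Fewer UMIs per cell by construction lower these counts.

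Differences that changed sign were all uncalled. *P2ry2* in macrophage-like against glia-like cells was 0.64 in round 2 only and -1.04 to 0.064 when a library was left out. *P2ry1* in P1-like neurons was 0.030 without centring. In pelvic against sympathetic neurons *P2ry12* was -0.087 with doublets left out, -0.26 with P3-like neurons only and -0.38 to 0.72 when a library was left out (-0.021 without the lumbar library), and *P2rx4* -0.012 to 0.076. In glia-like cells *P2ry12* was 0.033 without the round and -0.16 to 0.17 when a library was left out (0.029 without the lumbar library). The cause was not tested.

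Library is a replicate block in the class and pelvic cluster fits, since each library gives every class. With no replicate block, 6 receptors were called in neurons, 4 in macrophage-like, 5 in endothelial-like, 5 in mural-like and 4 in fibroblast-like cells against glia-like cells, and 0, 1, 1 and 1 in P1-like to P4-like neurons. With the block, 72.7%, 57%, 59.9%, 41.9% and 51.8% of all genes were called in these classes. The shares were 15%, 23.5%, 26.2% and 26.1% in the clusters. The shares without the block are not given, so these counts alone say little of the receptors. Pelvic and sympathetic libraries were matched by round, a term of their model: the first pelvic with the stellate library, and the second pelvic with the coeliac and lumbar libraries. Their replicate numbers pair nothing, since all 3 sympathetic libraries carry number 1.

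Macrophage-like and mural-like sums rest on as few as 20 and 27 cells in a library, and in a pelvic cluster of 1 library every receptor but *P2rx2* and *P2rx4* had at most 12 UMIs, which limits what can be said of them.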

Other observations

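*P2rx1* was also found in the small cluster of mast-like cells, which entered no comparison: 16 UMIs in 40 cells, 3 to 9 of them from each library, or 42.5 CPM pooled over the libraries, with a UMI in 17.5% of the cells. Pooled in the same way, mural-like cells measured 62.0 and macrophage-like cells 7.67 CPM. The value was not tested. A small cluster of 31 epithelial-like cells, 30 of them from pelvic replicate 2, also entered no comparison. It held 12 *P2rx2* UMIs, or 10.4 CPM pooled, with a UMI in 22.6% of the cells. Neurons pooled over the libraries measured 15.8 CPM. In pelvic replicate 2 alone, cholinergic neurons measured 29.1 and noradrenergic neurons 14.3 CPM. The epithelial-like value was not tested either.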
